A study of Mus musculus with 2 samples.

Results

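Stellate cell and extracellular matrix genes were followed in livers of 11-day-old BALB/c mice, in 1 library of wild-type liver and 1 of liver labelled SRSF2-/- (the knockout library). The genes were taken from a list of 39 symbols, and 38 of them were matched to RefSeq accessions in both tables, out of 26440 genes in all. The remaining one, Col6a3, was not matched and was not analysed here. Per the series' design text the deletion was restricted to the liver; the sources used here do not give the promoter that drove it, the cells it reached or the number of animals behind each library. SRSF2 is a serine/arginine-rich protein with a role in choosing splice sites.

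Hepatic stellate cells lie between the sinusoidal endothelium and the hepatocytes. In their resting state they store vitamin A as retinyl ester, and after injury they can turn into contractile, collagen-producing myofibroblasts. Matrix is also laid down by portal fibroblasts, smooth muscle and endothelium, and hepatocytes secrete matrix proteins of their own, among them the fibronectin of plasma. The 38 genes were read in 5 groups by role: resting stellate cell genes, myofibroblast genes with their growth factor receptors, collagens, matrix glycoproteins, and the enzymes and inhibitors that remodel matrix.

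Levels are given in FPKM (fragments scaled by transcript length and by mapped fragments), first for wild-type and then for knockout liver. Folds are plain FPKM ratios of knockout over wild type, and the range in parentheses is a 95% exact (Clopper-Pearson) interval computed from the reads. The libraries held 22407743 (wild-type) and 22111605 (knockout) reads. Neither genotype had a replicate, so no test between them was possible. The intervals cover counting error only, reads without molecular identifiers are not independent molecules, and the spread between animals is not in them. In bulk liver, fewer cells of a type and less RNA per cell cannot be told apart.

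The libraries differed in other ways that touch every value below. Srsf2, the targeted gene, had 1998 and 832 reads and stood at 27.9 and 11.8 FPKM, and the deleted part of it is not given. Xist had 13004 reads in wild-type liver and 6 in the knockout, and the Y-linked gene Ddx3y had 0 and 859 reads, so sex and genotype cannot be told apart. The 10 hepatocyte markers were present in both libraries and went both ways, with 2 past 2-fold on the higher side and 3 on the lower (1 and 6 when centred): Alb stood at 50399 and 25492 FPKM and Tat at 122 and 386 FPKM. Of 14 listed skeletal muscle markers, 13 were matched and their summed level was 0.307 and 96.3 FPKM, with Acta1 at 0 and 1387 reads. The 12 exocrine pancreas markers summed to 12.0 and 762 FPKM, with Cel at 0 and 3539 reads. The 8 cartilage and bone markers summed to 0.139 and 0.326 FPKM. The part of these tissues in the matrix values was not tested.

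Most of the stellate cell and matrix transcripts were more abundant in the knockout library. All 38 genes had at least 1 FPKM in either library and so passed the filter on low values, Timp1 through the knockout library alone. Their level was higher in the knockout for 35 and lower for 3 (Fn1, Col14a1 and Col4a2), and the median fold was 2.12, against 1.63 over all 12477 genes that passed the filter. A 2-fold rule was applied on the log2(FPKM + 1) scale, where the pseudocount of 1 understates the difference of low genes. By this rule 19 of the 38 genes passed 2-fold on the higher side and 0 on the lower, where 19.2% of all genes passed on the higher and 2.95% on the lower side. By the plain ratio, 23 of the 38 had a fold of at least 2 and 0 a fold of at most 0.5, where 32.2% and 3.82% of all genes did. Of the 38 genes, 20 had a plain fold from 1.9 to 3, and 5 had a fold of at least 3 (Timp1, Lum, Pdgfra, Thy1 and Dcn). The rest had folds below 1.9, down to 0.516 for Fn1.

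The ratios of all genes were shifted as a whole, and the count of matrix genes past 2-fold depends on whether that shift is kept. The median log2 ratio was 0.55 over all genes and 0.98 over the 38, a gap of 0.42. When every ratio was centred by subtracting that median, 3 of the 38 genes passed 2-fold on the higher side (Timp1, Lum and Dcn) and 1 on the lower (Fn1). The centred shares of all genes were 5.67% higher and 6.66% lower, so the centred counts lie near the background. These shares, and the 19.2% higher and 2.95% lower as deposited, are the background for every list count that follows. The filter asks for 1 FPKM in either library, for the lists as for all genes, so some genes passed it through the knockout library alone. Among those named below are Upk1b, Lama5, Adamts14, Mfap5, Plat, Mmp12, Plaur and Ddr1, each under 1 FPKM in wild-type liver. Of the 38 genes, 29 lay above the median of all genes on the log2(FPKM + 1) scale, which 50% of all genes do by construction. Tgfb1 and Mmp14 are among the 29, but their plain folds lie below the median plain fold of 1.63.

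**Figure D1:**
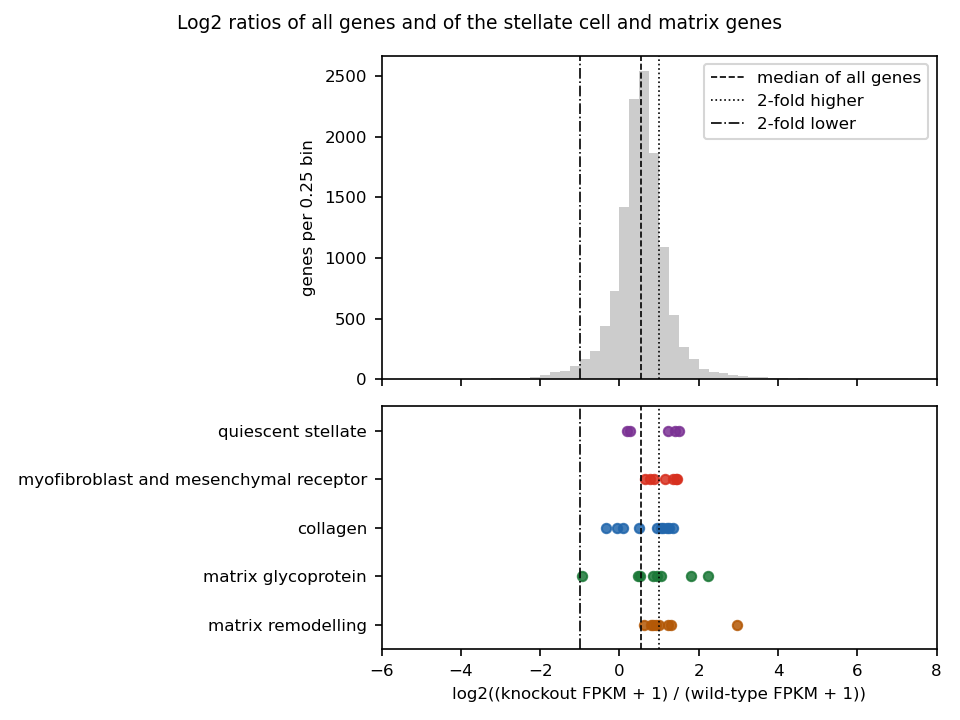
Upper panel, number of genes per 0.25-wide bin of log2((knockout FPKM + 1) / (wild-type FPKM + 1)) for the 12477 genes that passed the filter. Lower panel, the 38 stellate cell and matrix genes at their log2 ratios, 1 point per gene, by role group. The dashed line marks the median of all genes at 0.55, and most points lie to its right, while few lie beyond the bulk of all genes.

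The stretches before the annotated starts of a few genes are shown because these genes span the range of the results: Timp1 with the largest fold, Col6a1 with the largest fold among collagens, Col1a2 near the median fold of the set, and Lrat with a fold near 1. They come from RefSeq (GRCm38.p6) and hold the 250 bases before the start, 5′ to 3′ on the gene's strand. Capitals mark matches on either strand to CCAAT (the CCAAT box), GGGCGG (a site of the Sp1 type), TGANTCA (a site of the AP-1 type) and the CArG box of smooth muscle genes, and no marked match overlaps a match to another motif.
Timp1, chrX:20869916-20870165, plus strand: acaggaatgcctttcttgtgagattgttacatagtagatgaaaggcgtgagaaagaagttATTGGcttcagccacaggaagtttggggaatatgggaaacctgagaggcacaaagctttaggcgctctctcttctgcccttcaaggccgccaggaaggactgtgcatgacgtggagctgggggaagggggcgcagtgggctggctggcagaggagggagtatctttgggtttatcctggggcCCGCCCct
Col6a1, chr10:76726045-76726294, minus strand: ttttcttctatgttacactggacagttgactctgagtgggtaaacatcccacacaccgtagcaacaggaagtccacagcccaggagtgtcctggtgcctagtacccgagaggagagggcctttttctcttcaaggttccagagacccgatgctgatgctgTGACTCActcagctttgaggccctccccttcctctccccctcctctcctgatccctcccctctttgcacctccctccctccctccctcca
Col1a2, chr6:4505368-4505617, plus strand: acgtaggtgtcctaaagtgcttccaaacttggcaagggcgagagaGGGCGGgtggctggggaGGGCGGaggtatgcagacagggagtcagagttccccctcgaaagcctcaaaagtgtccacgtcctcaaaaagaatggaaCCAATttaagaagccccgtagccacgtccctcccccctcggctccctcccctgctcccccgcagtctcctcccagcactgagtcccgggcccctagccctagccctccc
Lrat, chr3:82903975-82904224, minus strand: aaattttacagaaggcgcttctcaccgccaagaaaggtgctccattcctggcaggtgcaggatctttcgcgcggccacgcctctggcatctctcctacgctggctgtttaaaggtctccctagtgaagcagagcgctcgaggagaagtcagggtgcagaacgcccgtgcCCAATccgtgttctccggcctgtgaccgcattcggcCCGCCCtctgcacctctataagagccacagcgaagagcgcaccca

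Of the 39 listed genes, 25 had a stretch in the promoter table. A listed gene was counted if any of its stretches held the letters, while the shares of all are per stretch, so the units differ. CCAAT was found for 9 of the 25, against 33.8% of all 32851 stretches, and those 9 included Timp1, Col1a2, Lrat and both type IV collagen genes. GGGCGG was found for 14 of the 25, against 32.7% of all. TGANTCA was found for 1 of the 25, Col6a1, at 84 to 90 bases before the start, against 6.75% of all, and the CArG box for 0 of the 25, against 1.47%. A match is a run of letters and not a shown binding site, and a stretch without one says only that these letters are not within the 250 bases.

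Fibronectin dominated the reads of the set. Fn1, which encodes a cell-binding glycoprotein that hepatocytes release into plasma and other cells lay down in tissue, had 169581 reads in wild-type liver and 86499 in the knockout. Its level was 759 and 392 FPKM, so it was the most abundant of the 38 transcripts in both libraries and 1.94-fold lower in the knockout (1.92 to 1.95). Fn1 took 72.5% of the reads of the 38 genes in wild-type liver and 42.3% in the knockout. The other 37 genes together took 0.287% of the wild-type reads (0.285 to 0.289) and 0.534% of the knockout reads (0.530 to 0.537), and their summed level was 650.0 and 1363 FPKM, 2.10-fold higher. Alb, which hepatocytes also secrete, was 1.98-fold lower (1.97 to 1.98), while the hepatocyte marker Tat was 3.15-fold higher (3.07 to 3.23). Of the 10 hepatocyte markers, 2 were past 2-fold on the higher side and 3 on the lower. Their median log2 ratio was -0.76, and they summed to 78186 and 40259 FPKM, most of it Alb. The part of hepatocytes in the Fn1 value was not tested.

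**Figure D2:**
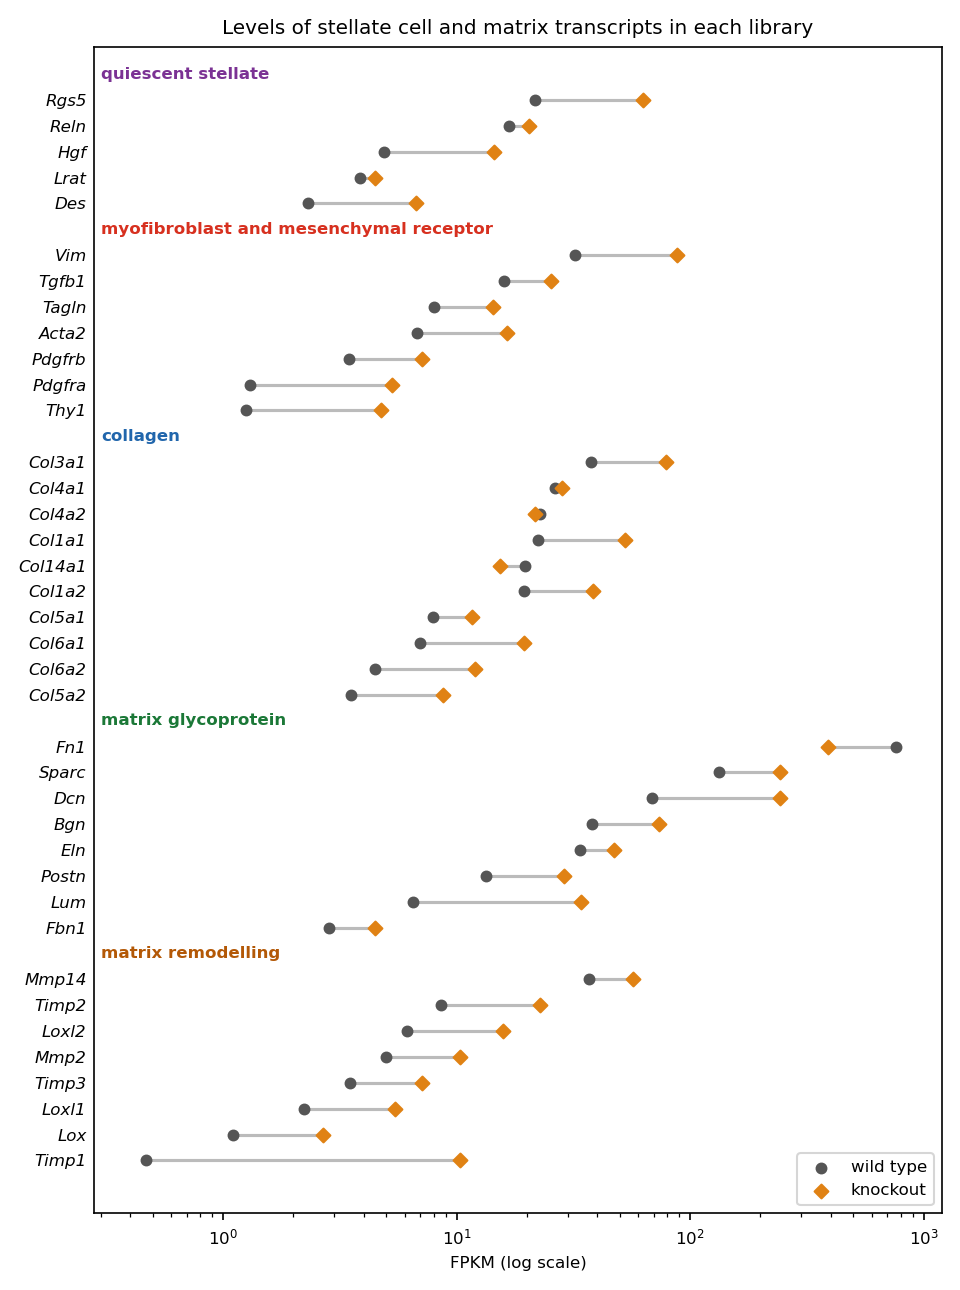
FPKM of the 38 transcripts on a log axis, grouped by role and ordered by the wild-type level, with a circle for the wild-type and a diamond for the knockout library. Diamonds lie to the right of circles for 35 transcripts, Fn1 and Col14a1 run the other way, and the 2 type IV collagen transcripts nearly coincide.

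The genes that mark resting stellate cells differed among themselves. Lrat, which encodes the enzyme that esterifies retinol for storage, had 546 and 630 reads and stood at 3.85 and 4.49 FPKM, a fold of 1.17 (1.04 to 1.31). Reln, which encodes the secreted glycoprotein reelin, stood at 16.8 and 20.4 FPKM from 5278 and 6313 reads, a fold of 1.21 (1.17 to 1.26). Both folds lie below the median of all genes, and both log2 ratios turn negative after centring, at -0.37 and -0.29. By contrast Hgf, which encodes the hepatocyte growth factor that stellate cells supply to hepatocytes, stood at 4.88 and 14.5 FPKM from 778 and 2281 reads, a fold of 2.97 (2.73 to 3.22). Rgs5, a regulator of G protein signalling typical of pericytes, stood at 21.7 and 63.0 FPKM from 1041 and 2989 reads, a fold of 2.91 (2.71 to 3.12). Des, the intermediate filament gene of stellate and muscle cells, had 132 and 378 reads and stood at 2.31 and 6.71 FPKM, a fold of 2.90 (2.37 to 3.56). So 3 of these 5 genes were at least 2-fold higher as deposited and 0 after centring. Skeletal muscle also makes desmin, and the part of the muscle transcripts named above in the value of Des was not tested.

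Further genes that stellate cells are known to express were also spread over both sides. Of 28 listed, 27 were matched and 23 passed the filter. Of these, 5 were past 2-fold on the higher side and 0 on the lower (1 and 3 when centred), and their median log2 ratio of 0.52 is close to the 0.55 of all genes. Cygb, which encodes the stellate cell globin cytoglobin, stood at 4.997 and 21.7 FPKM, a fold of 4.33 (3.83 to 4.92). Adamtsl2, a secreted protein of the microfibril, stood at 1.31 and 4.58 FPKM, and Ednrb, an endothelin receptor gene, at 7.13 and 17.9 FPKM. The most abundant of the list, the metalloreductase gene Steap4, stood at 75.6 and 139 FPKM.

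The 7 genes of contractile and mesenchymal cells were higher in the knockout library as deposited and when centred, and Tgfb1 alone turned slightly negative under TMM (-0.04) and median-of-ratios (-0.05) scaling. Acta2, which encodes the smooth muscle actin that marks myofibroblasts, had 463 and 1106 reads and stood at 6.79 and 16.4 FPKM, a fold of 2.42 (2.17 to 2.70). Tagln, which encodes the actin-binding protein transgelin, stood at 8.03 and 14.3 FPKM from 338 and 595 reads, a fold of 1.78 (1.56 to 2.04); it overlaps Pcsk7, which had 451 and 366 reads. Vim, the vimentin gene of mesenchymal cells, was the most abundant of the group at 32.1 and 88.0 FPKM from 1561 and 4232 reads, a fold of 2.74 (2.59 to 2.91). Thy1, a surface protein of portal fibroblasts and T cells, had 58 and 216 reads and stood at 1.26 and 4.75 FPKM, a fold of 3.77 (2.81 to 5.13). Acta2, Vim, Thy1 and Pdgfra were at least 2-fold higher by the rule, and 0 of the 7 after centring.

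The platelet-derived growth factor receptors differed from each other. Pdgfra, the receptor typical of fibroblasts, had 248 and 993 reads and stood at 1.31 and 5.30 FPKM, a fold of 4.05 (3.52 to 4.68). Pdgfrb, the receptor typical of stellate cells and pericytes, stood at 3.48 and 7.14 FPKM from 507 and 1029 reads, a fold of 2.05 (1.84 to 2.29). The FPKM ratio of Pdgfrb to Pdgfra was 2.66 in wild-type liver (2.28 to 3.11) and 1.35 in the knockout (1.23 to 1.47). A change of scaling cancels in such a ratio, and it was 0.507 times as large in the knockout (0.424 to 0.606). Tgfb1, the gene of the main fibrogenic cytokine, stood at 15.9 and 25.5 FPKM from 883 and 1400 reads, a fold of 1.60 (1.47 to 1.75), close to the median of all genes.

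Most markers of other mesenchymal cells stood higher too, by factors that varied. Of 13 portal fibroblast and mesothelial markers, 10 passed the filter, with 6 past 2-fold on the higher side and 0 on the lower (0 and 0 when centred), and their summed level over all 13 was 21.5 and 49.9 FPKM. The higher share was 60% as deposited, against 19.2% of all genes. Cd34 stood at 1.52 and 5.01 FPKM, Upk1b at 0.407 and 2.17 FPKM, Dpt at 3.18 and 7.998 FPKM, and Mfap4 at 6.56 and 9.29 FPKM. Of 11 vascular smooth muscle markers, 9 passed the filter, with 3 past 2-fold on the higher side (33.3%) and 0 on the lower (1 and 0 when centred), and they summed to 71.0 and 116 FPKM. Among these Tpm2, a tropomyosin gene that striated muscle also uses, stood at 1.09 and 5.38 FPKM, Actg2 at 1.18 and 5.08 FPKM, and Cald1, the caldesmon gene, at 41.4 and 65.5 FPKM. Des, one of the 38 genes, is the remaining one of the 3 past 2-fold, and Mylk, named after its value was seen, was lower at 9.40 and 7.93 FPKM, a fold of 0.843 (0.789 to 0.901). The part of these cells in the myofibroblast and collagen values was not tested.

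**Figure D3:**
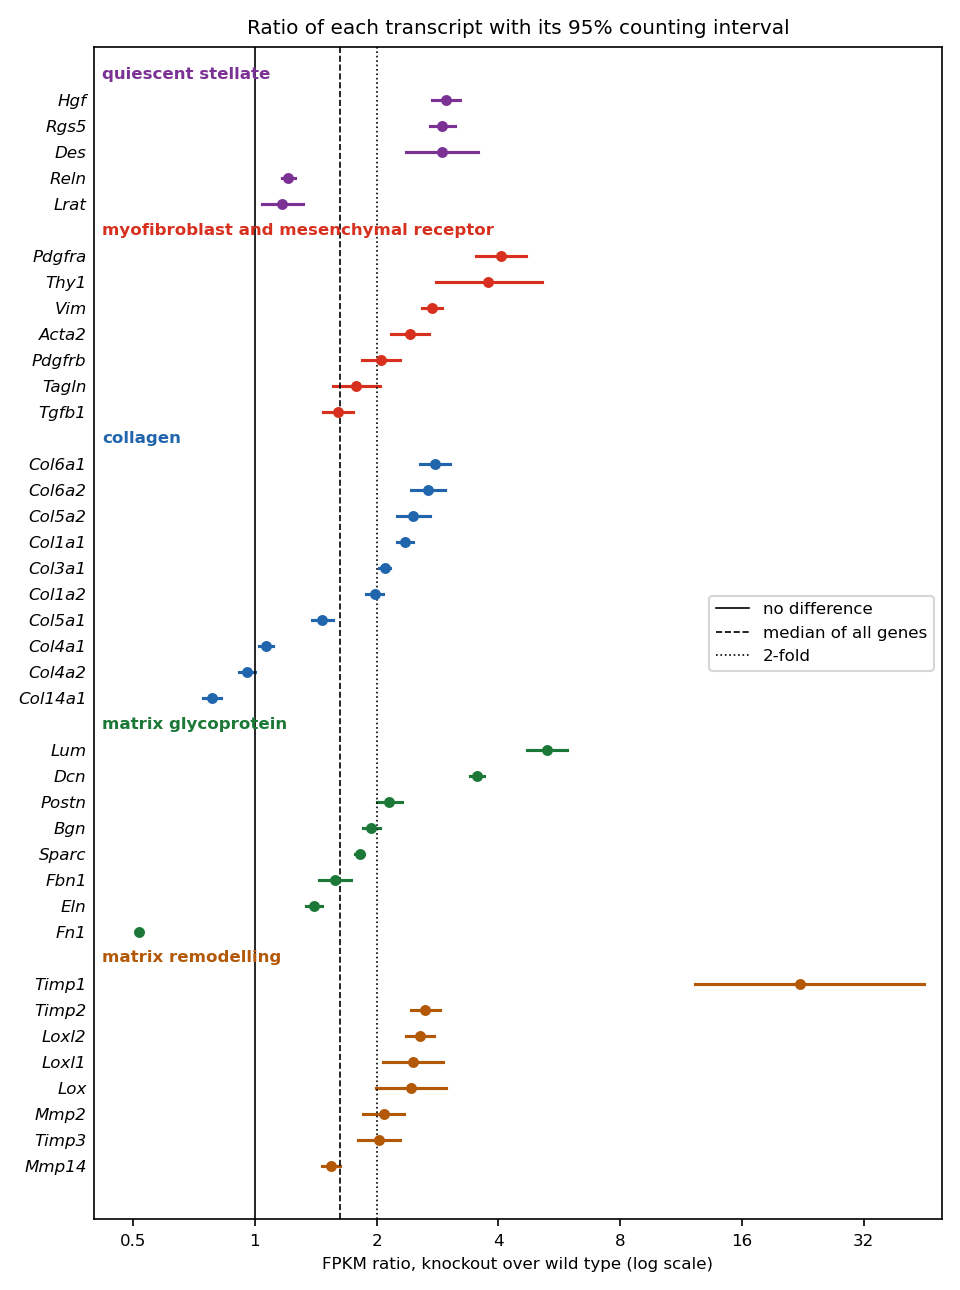
FPKM ratio of knockout over wild type for the 38 transcripts on a log axis, with 95% exact counting intervals, by role group and ordered by fold. Vertical lines mark no difference, the median plain fold of all genes (1.63) and 2-fold. Timp1 stands alone at 22.3, most others lie between 1.5 and 3, and Fn1, Col14a1 and Col4a2 lie below 1.

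The collagens split by type. Col1a1 and Col1a2 encode the chains of type I collagen, the main fibre of scar. Col1a1 had 2804 and 6519 reads and stood at 22.4 and 52.8 FPKM, a fold of 2.35 (2.25 to 2.46). Col1a2 stood at 19.4 and 38.3 FPKM from 2642 and 5164 reads, a fold of 1.98 (1.89 to 2.07), just short of the 2-fold rule. Col3a1, the chain of type III collagen found with type I in soft tissue, was the most abundant of the 10 measured collagens of the set at 37.5 and 78.6 FPKM from 5533 and 11457 reads, a fold of 2.10 (2.03 to 2.16). Type V collagen nucleates these fibres, and its chains differed: Col5a2 stood at 3.54 and 8.73 FPKM from 621 and 1514 reads, a fold of 2.47 (2.25 to 2.71), and Col5a1 at 7.91 and 11.6 FPKM from 1763 and 2557 reads, a fold of 1.47 (1.38 to 1.56).

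Type VI collagen forms beaded filaments around cells. Col6a1 stood at 6.98 and 19.5 FPKM from 736 and 2031 reads, a fold of 2.79 (2.57 to 3.04), and Col6a2 at 4.48 and 12.0 FPKM from 588 and 1558 reads, a fold of 2.68 (2.44 to 2.95). The ratio of Col6a1 to Col6a2 was 1.56 in wild-type liver and 1.62 in the knockout, and the interval of their quotient, 0.915 to 1.18, includes 1.

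The basement membrane collagen differed from the fibrous ones. Type IV collagen is the network-forming collagen of basement membranes. Col4a1 had 4633 and 4884 reads and stood at 26.4 and 28.2 FPKM, a fold of 1.07 (1.02 to 1.11). Col4a2 had 3875 and 3663 reads and stood at 22.7 and 21.7 FPKM, a fold of 0.957 (0.914 to 1.001). These genes lie head to head: in the RefSeq promoter table of GRCm38.p6 their start sites on chromosome 8 are 21 bases apart, Col4a1 on the minus and Col4a2 on the plus strand, and the annotated genes overlap by 85 bases. No source used here says whether reads were counted by strand, so reads in that overlap could count for either gene. Col14a1, a collagen that sits on the surface of fibres, was lower in the knockout at 19.6 and 15.3 FPKM from 3373 and 2614 reads, a fold of 0.784 (0.745 to 0.826).

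As deposited, 5 of the 10 measured collagens passed 2-fold on the higher side (Col1a1, Col3a1, Col5a2, Col6a1 and Col6a2) and 0 on the lower; when centred, 0 passed on either side. The make-up of these 10 transcripts does not depend on the scaling between libraries, but it does depend on which collagens are counted. Fibrillar chains (types I, III and V) took 53.1% of the summed FPKM of the 10 in wild-type liver and 66.3% in the knockout, and type VI took 6.70% and 11.0%. Type IV took 28.8% and 17.4%, and type XIV took 11.4% and 5.35%. Among 39 matched collagens, a total chosen after the values had been seen, Col18a1 alone took 52.7% and 23.5% of the FPKM. The 39 are these 10 and 29 from a further list, without Col2a1, Col9a1 and Col11a1 of the cartilage and bone list. Of the total over the 39, the fibrillar chains of the 10 took 23.8% and 48.9%, and Col6a1 with Col6a2 took 3.01% and 8.10%. Col4a1 with Col4a2 took 12.9% and 12.8%, so the lower type IV share holds among the 10 only. Further chains of types IV, V and VI, such as Col4a5 and Col5a3, count in that total but not in these shares. In reads, type IV took 32.0% of the wild-type (31.5 to 32.6) and 20.4% of the knockout reads of the 10 (19.98 to 20.8). The level of type IV itself was close in both, at 49.1 and 49.9 FPKM for the 2 chains together, while the fibrillar sum was 90.7 and 190.0 FPKM.

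**Figure D4:**
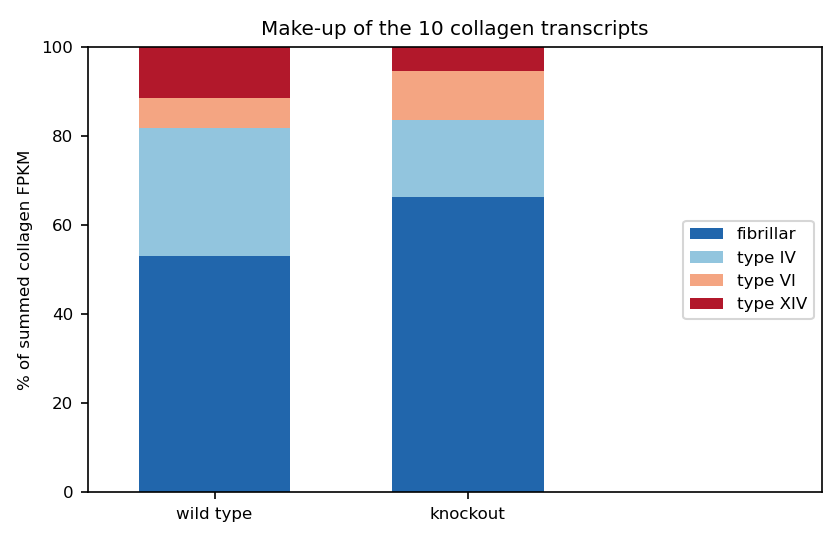
Share of the summed FPKM of the 10 measured collagen transcripts taken by fibrillar, type IV, type VI and type XIV chains, 1 stacked bar per library. The fibrillar share is 53.1% in wild-type liver and 66.3% in the knockout, and the type IV share is 28.8% and 17.4%.

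Other collagens and the basement membrane genes had lower medians than the 10 collagens above, whose median log2 ratio was 0.998. That of the other collagens was -0.41, over only the 5 that passed the filter. Collagens below the filter went both ways, with Col5a3 at 46 and 154 reads and Col4a3 at 90 and 46 reads. Of 30 further collagen genes, 29 were matched and 5 passed the filter, with 0 past 2-fold on the higher side and 1 on the lower (0 and 2 when centred). That gene, Col18a1, whose product yields endostatin and which hepatocytes express, stood at 201 and 91.5 FPKM, a fold of 0.456 (0.447 to 0.464). Col15a1 stood at 2.52 and 1.33 FPKM and Col16a1 at 0.694 and 1.43 FPKM. Of 18 laminin, nidogen and heparan sulfate proteoglycan genes, 16 passed the filter, with 2 past 2-fold on the higher side and 0 on the lower (0 and 1 when centred), with a median log2 ratio of 0.25. Their higher share of 12.5% lies below the 19.2% of all genes. Lama5, a laminin chain gene, stood at 0.969 and 3.93 FPKM, a fold of 4.05 (3.56 to 4.62). Nid1, which links laminin to type IV collagen, stood at 29.4 and 56.4 FPKM, and the syndecan gene Sdc4 at 170 and 157 FPKM. Markers of sinusoidal and vascular endothelium, another source of basement membrane, had a median log2 ratio of 0.36 over 12 genes, with 0 past 2-fold in either direction, and summed to 204 and 262 FPKM.

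The genes that fold and trim collagen had a median ratio close to that of all genes. All 26 listed genes were matched and 21 passed the filter, with 3 past 2-fold on the higher side and 0 on the lower (1 and 0 when centred), and a median log2 ratio of 0.57. Their higher share of 14.3% lies below the 19.2% of all genes. Adamts14, a protease that removes the amino-terminal propeptide of collagen, stood at 0.705 and 5.49 FPKM, a fold of 7.78 (6.29 to 9.72). P3h2, a prolyl hydroxylase gene, stood at 0.436 and 1.97 FPKM, and the collagen glycosyltransferase gene Colgalt1 at 17.3 and 36.7 FPKM. The disulfide isomerase and prolyl hydroxylase subunit gene P4hb, which is used well beyond collagen, stood at 513 and 536 FPKM.

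Among the matrix glycoproteins, the highest folds were those of Lum and Dcn, which encode small leucine-rich proteoglycans that coat collagen fibres. Lum, which encodes lumican, had 357 and 1861 reads and stood at 6.49 and 34.2 FPKM, a fold of 5.28 (4.71 to 5.92). Dcn, which encodes decorin, had 3442 and 12053 reads and stood at 68.8 and 244 FPKM, a fold of 3.54 (3.41 to 3.68). Bgn, which encodes biglycan of the same family, stood at 38.1 and 74.0 FPKM from 2506 and 4809 reads, a fold of 1.94 (1.85 to 2.04). Lum and Dcn stayed at least 2-fold higher after centring, with log2 ratios of 1.68 and 1.26, and Bgn was short of the rule before and after.

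The matricellular and elastic fibre genes were nearer to the background. Postn, which encodes the periostin of injured matrix, stood at 13.4 and 28.9 FPKM from 1178 and 2502 reads, a fold of 2.15 (2.005 to 2.31). Sparc, which encodes a collagen-binding protein also called osteonectin, stood at 134 and 243 FPKM from 8792 and 15783 reads, a fold of 1.82 (1.77 to 1.86). The elastic fibre genes had the smaller folds: Eln, the elastin gene, stood at 33.6 and 47.0 FPKM from 3411 and 4713 reads, a fold of 1.40 (1.34 to 1.46), and Fbn1, the fibrillin gene, at 2.84 and 4.47 FPKM from 745 and 1161 reads, a fold of 1.58 (1.44 to 1.73). Both of these have a log2 ratio slightly below 0 after centring, at -0.08 and -0.04. In all, 3 of the 8 glycoprotein genes were at least 2-fold higher (Lum, Dcn and Postn), and after centring 2 were higher and 1, Fn1, lower.

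The wider list of matrix glycoproteins held members on both sides. Of 26 genes, 22 passed the filter, with 8 past 2-fold on the higher side and 0 on the lower (3 and 0 when centred) and a median log2 ratio of 0.78. The higher share was 36.4%, against 19.2% of all genes. Sparcl1, a relative of Sparc found in vessels, stood at 2.15 and 12.6 FPKM, a fold of 5.84 (4.998 to 6.86). Thbs1, which encodes the thrombospondin that can release active TGF-beta, stood at 1.28 and 6.75 FPKM, a fold of 5.27 (4.53 to 6.17). Mfap5, a microfibril gene, had 1 read in wild-type liver and 75 in the knockout, a ratio with an interval of 13.2 to 3037. Vtn, the vitronectin gene that hepatocytes express for plasma, stood at 1372 and 1011 FPKM, a fold of 0.737 (0.729 to 0.746).

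Of the remodelling genes, Timp1 stood apart. Timp1 encodes a tissue inhibitor of metalloproteinases that is induced in injured liver. It had 11 reads in wild-type liver and 242 in the knockout, or 0.466 and 10.4 FPKM from 11 and 242 reads, a fold of 22.3 (12.2 to 45.2). Timp2 stood at 8.62 and 22.7 FPKM from 828 and 2159 reads, a fold of 2.64 (2.43 to 2.86), and Timp3, the inhibitor bound to matrix, at 3.49 and 7.08 FPKM from 434 and 869 reads, a fold of 2.03 (1.80 to 2.28). Within the libraries, Timp1 was 0.0541 of Timp2 in the wild-type (0.0269 to 0.0972) and 0.456 of it in the knockout (0.398 to 0.521), 8.44-fold higher (4.60 to 17.2). Timp1 lies within the annotated span of Syn1, which had 10 and 51 reads, fewer in the knockout than Timp1. Timp3 lies likewise within Syn3, which had 48 and 70 reads, and reads of such overlaps cannot be assigned with the strand use unknown.

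The collagen-degrading enzymes differed less. Mmp2, a gelatinase gene of stromal cells, stood at 4.97 and 10.3 FPKM from 422 and 868 reads, a fold of 2.08 (1.85 to 2.34). Mmp14, which encodes the membrane protease that activates the MMP2 protein, stood at 36.9 and 56.8 FPKM from 2539 and 3865 reads, a fold of 1.54 (1.46 to 1.62). The ratio of Timp1 to Mmp2 was 0.0938 in wild-type liver (0.0465 to 0.170) and 1.003 in the knockout (0.867 to 1.16), so the Timp1 level lay far below that of Mmp2 in the first and beside it in the second.

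The lysyl oxidases, which cross-link collagen and elastin, were close to one another. Lox had 143 and 343 reads and stood at 1.10 and 2.67 FPKM, a fold of 2.43 (1.99 to 2.97). Loxl1 stood at 2.22 and 5.46 FPKM from 197 and 478 reads, a fold of 2.46 (2.08 to 2.91), and Loxl2 at 6.15 and 15.8 FPKM from 845 and 2138 reads, a fold of 2.56 (2.36 to 2.78). Their intervals overlap. By the rule with a pseudocount, Loxl2 and Loxl1 (log2 ratio 1.003) passed and Lox (0.81) did not, which follows from its low level. Of the 8 remodelling genes 4 passed 2-fold as deposited (Timp1, Timp2, Loxl1 and Loxl2) and 1, Timp1, after centring. All 8 lay above the median of all genes on the log2(FPKM + 1) scale. The plain fold of Mmp14, 1.54, lay below the median plain fold of 1.63. Its log2 ratio turned slightly negative under TMM (-0.10) and median-of-ratios (-0.11) scaling.

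**Figure D5:**
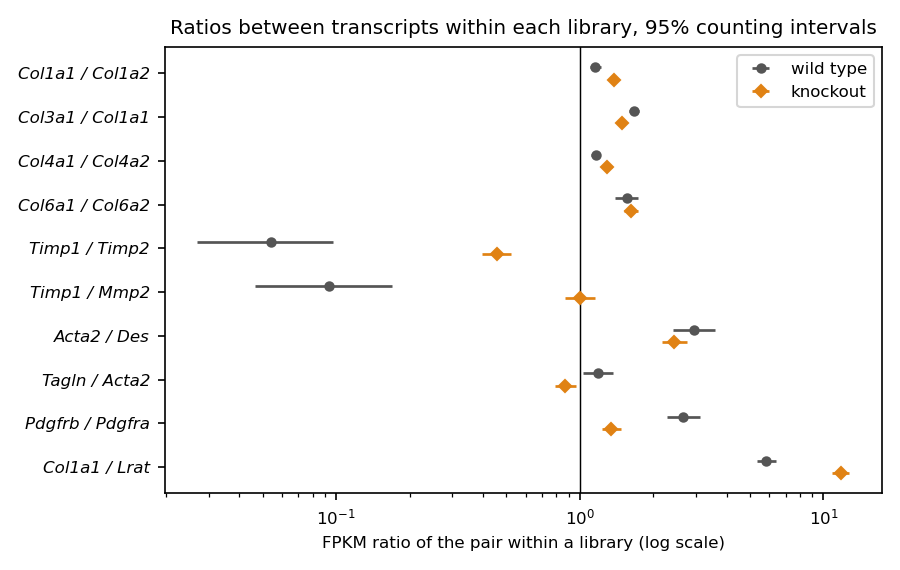
FPKM ratio of 10 transcript pairs within each library on a log axis, with 95% exact counting intervals, circles for the wild-type and diamonds for the knockout library. Timp1 relative to Timp2 and to Mmp2, and Col1a1 relative to Lrat, are higher in the knockout, Pdgfrb relative to Pdgfra and Tagln relative to Acta2 are lower, and Col6a1 relative to Col6a2 is nearly equal.

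The other pair ratios differed less between libraries, apart from that of Col1a1 to Lrat. The ratio of Col1a1 to Lrat, a collagen of activated cells over a gene of resting stellate cells, was 5.83 in wild-type liver (5.32 to 6.41) and 11.8 in the knockout (10.8 to 12.8), 2.01-fold higher (1.78 to 2.28). Col1a1 to Col1a2 was 1.16 and 1.38, 1.19-fold higher (1.11 to 1.27), and Col3a1 to Col1a1 was 1.67 and 1.49, a quotient of 0.891 (0.843 to 0.941). Col4a1 to Col4a2 was 1.12-fold higher in the knockout (1.05 to 1.19). Tagln to Acta2 was 1.18 and 0.872, a quotient of 0.737 (0.618 to 0.879). Acta2 to Des was 2.93 and 2.45, with an interval of 0.660 to 1.05 for the quotient. These intervals are narrow because they hold counting error alone, and the spread of such ratios between animals was not measured.

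The proteases beyond the 38 genes held a few larger single differences, but not a higher median. Their median log2 ratio was 0.85, against 0.98 for the 38. Of 31 further metalloproteinase and plasmin system genes, 23 passed the filter, with 10 past 2-fold on the higher side and 0 on the lower (3 and 1 when centred). The higher share was 43.5%, where 19.2% of all genes passed on that side and 2.95% on the lower. Some of the 10 passed the filter only because they were high in the knockout library, Plat, Mmp12 and Plaur among them. Plat, which encodes tissue plasminogen activator, had 17 and 2279 reads and stood at 0.236 and 32.0 FPKM, a fold of 136 (84.5 to 233). Mmp12, the macrophage metalloelastase gene, had 8 and 855 reads and stood at 0.0836 and 9.04 FPKM, a fold of 108 (54.6 to 251). Plaur, the urokinase receptor gene, stood at 0.935 and 10.03 FPKM, a fold of 10.7 (7.80 to 15.1). Plg, the plasminogen gene of hepatocytes, was lower at 952 and 562 FPKM, a fold of 0.591 (0.583 to 0.598). Macrophage markers were higher too: of 12 listed, 10 were matched and passed the filter, with 4 past 2-fold on the higher side (40%) and 0 on the lower (1 and 0 when centred), and they summed to 217 and 510 FPKM. The part of macrophages, or of the pancreas transcripts named above, in the protease values was not tested.

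Signalling genes upstream of stellate cell activation were mixed. Of 26 TGF-beta pathway genes, 25 were matched and 23 passed the filter, with 7 past 2-fold on the higher side and 0 on the lower (2 and 0 when centred) and a median log2 ratio of 0.62. The higher share was 30.4%, against 19.2% of all genes. Tgif1, a repressor of the pathway, stood at 5.33 and 29.4 FPKM, a fold of 5.51 (4.84 to 6.29). Ccn2, the connective tissue growth factor gene and a target of the pathway, stood at 1.88 and 10.8 FPKM, a fold of 5.73 (4.72 to 7.02). The receptor gene Tgfbr1 stood at 2.39 and 8.36 FPKM, a fold of 3.50 (3.14 to 3.92). Of 9 PDGF and HGF pathway genes, 8 passed the filter, 4 higher and 2 lower (1 and 2 after centring). The ligand genes Pdgfa, at 2.68 and 14.4 FPKM, and Pdgfc, at 0.644 and 3.02 FPKM, were higher, and Hgfac, which encodes the activator of hepatocyte growth factor made by hepatocytes, was lower at 149 and 56.5 FPKM, a fold of 0.379 (0.364 to 0.395).

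Among receptors for matrix that passed the filter, Ddr1 and Itga3 had the highest folds. Of 17 integrin and collagen receptor genes, 15 passed the filter, with 4 past 2-fold on the higher side and 0 on the lower (3 and 0 when centred). The higher share was 26.7%, against 19.2% of all genes. Ddr1, the collagen receptor of epithelial cells, stood at 0.920 and 8.84 FPKM, a fold of 9.61 (7.93 to 11.7). Itga3, the subunit of a laminin-binding integrin, stood at 1.54 and 13.3 FPKM, a fold of 8.66 (7.47 to 10.1). Cd44, the hyaluronan receptor gene, stood at 3.03 and 11.9 FPKM, and the most abundant, Itgb1, the common beta subunit, at 26.0 and 40.4 FPKM. Bile duct markers were higher as well: 7 of 9 passed the filter, with 4 past 2-fold on the higher side (57.1%) and 0 on the lower (2 and 0 when centred), with Krt19 at 1.86 and 15.8 FPKM. Their part in the receptor values was not tested.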

How the data were processed

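Liver RNA was sequenced in 1 wild-type and 1 knockout library; genotype was read from the labels. Bowtie 0.12.2 and mouse build mm9 are named in the submitters' processing notes. The sources used here do not give the counting program, annotation, use of strand or handling of multi-mapped reads. Per the file headers, the deposited tables give a read count and an FPKM per RefSeq accession, both made by the authors. Accessions were named through RefSeq (GRCm38.p6) and GENCODE tables, 23419 of 26449, and summed per gene. Each of the 38 genes came from 1 accession.

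The 38 genes and all lists were chosen with earlier results of these data known. Genes with at least 1 FPKM in either library were compared by the difference, knockout minus wild type, of log2(FPKM + 1). Folds are plain FPKM ratios. Their intervals scale the exact read-ratio interval by 1.012, the FPKM worth of 1 read in the knockout over the wild-type table. Changes of pair ratios carry exact conditional odds-ratio intervals. All 38 genes are named, and from each further or marker list up to 4 genes: the 3 whose log2 ratios lay furthest from 0, plus the one with the highest mean FPKM; fewer are printed for marker lists. Some genes that this rule names are not reported here. Alternatives changed the pseudocount, filter, scaling (TPM, centring, edgeR 4.0.16 TMM, median of ratios, leaving out the 20 most abundant genes), the accession used and the size rule. The plain FPKM ratio was chosen after seeing the data. Scripts were tested on simulated data. Python 3.11.15, scipy 1.17.1 and R 4.3.3 were used.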

Additional observations from a re-analysis of the deposited data

How the results depend on the processing

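No paired analysis was possible because each genotype has 1 library. The direction of the median of the 38 genes held under each alternative run, and no gene at least 2-fold higher changed sign, but counts past 2-fold depended on the scaling and the pseudocount. The main counts were 19 higher and 0 lower. Centring on the median of all genes gave 3 higher and 1 lower with a median log2 ratio of 0.42; TMM scaling gave 3 and 1 with 0.33 (5.73% and 7.51% of all genes), and median-of-ratios scaling 3 and 2 with 0.31 (5.51% and 7.63%). Under each of these 3 scalings 0 resting stellate, 0 myofibroblast and 0 collagen genes and 1 remodelling gene were at least 2-fold higher. Rescaling without the 20 most abundant genes gave 9 higher (9.99% of all genes) and 1 lower (4.53%), a median of 0.67, and 1 collagen and 1 remodelling gene. A pseudocount of 5 gave 8 higher (6.30% of all genes), a median of 0.68, and 1 resting stellate, 1 myofibroblast, 2 collagen and 2 remodelling genes. A 1.5-fold rule gave 29 higher (47.4% of all genes) and 1 lower (5.51%), with 7 myofibroblast, 5 glycoprotein and 8 remodelling genes. A 4-fold rule gave 2 higher (2.76% of all genes), with 0 resting stellate, 0 myofibroblast, 0 collagen, 1 glycoprotein and 1 remodelling gene. The plain FPKM ratio without a pseudocount, added after the data had been seen, gave 23 higher, where 32.2% of all genes were, and 7 remodelling genes. A pseudocount of 0.1, no filter, a filter of 5 FPKM, TPM and the accession with most reads left the counts within 1.5 times the main ones. Over all genes the share of calls that were higher was 86.7% as deposited, 46.0% after centring, 43.3% with TMM, 41.9% with median of ratios and 68.8% without the 20 most abundant genes. Under these 4 rescalings the log2 ratios of Lrat, Reln and Col4a1, positive as deposited, turn negative, as do those of Col5a1, Fbn1 and Eln under all but the last, and those of Tgfb1 and Mmp14 under TMM and median of ratios. Col14a1 passes 2-fold on the lower side under median of ratios, at -1.01. Depth limits Timp1 most, with 11 wild-type reads, while each other gene had at least 58 reads in each library.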

Other observations

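The ligand and receptor genes of hepatocyte growth factor differed in direction, and those of PDGF did not. These genes were set side by side after their values had been seen. Hgf was higher in the knockout library at 4.88 and 14.5 FPKM, a fold of 2.97 (2.73 to 3.22), while Met, which encodes its receptor on hepatocytes, was lower at 17.0 and 7.67 FPKM, a fold of 0.451 (0.423 to 0.481), and Hgfac was lower too. For PDGF, the ligand gene Pdgfb stood at 0.546 and 2.73 FPKM, a fold of 4.99 (3.75 to 6.74), beside higher values of both receptor genes.

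Erythroid markers, which decline in liver after birth, summed to 777 and 444 FPKM over 8 genes. Of these, 6 passed the filter, with 0 past 2-fold on either side as deposited (0 higher and 3 lower when centred). Their log2 ratios ran from -0.83 to 0.46, so they went both ways. Of all genes, 19.2% passed on the higher and 2.95% on the lower side, or 5.67% and 6.66% when centred.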
